A study of Mus musculus with 82 samples.

Results

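OT-II cells, CD4 T cells whose transgenic receptor recognizes an ovalbumin peptide, were compared after pGal-OVA, a synthetically glycosylated ovalbumin, and after plain ovalbumin (OVA), in recipient mice that had not been immunized. The libraries were those labelled prophylactic, OT-II and either pGal (5) or OVA (4), which makes 9 of the 82 libraries of the series. The 5 saline libraries gave the background level, and OT-I cells, the CD8 counterpart sorted in the same experiment, served for comparison with 5 pGal and 5 OVA libraries. The libraries outside the prophylactic experiment came from mice immunized a month before treatment.

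The recipients carried the C57BL/6 strain label, and all of them had received both OT-I and OT-II cells. The pGal group was then given pGal-OVA, the OVA group 5 µg of plain OVA and the saline group saline, 1 day after the transfer. The amount of pGal-OVA is 5 µg in one label and the molar antigen equivalent of the OVA dose in another, so an equal antigen dose cannot be taken as given. Cells were collected 4 days after the antigen, on day 5, from pooled spleen and lymph nodes, and each library pooled the sorted cells of 3 mice. The labels name 2 batches, without saying what a batch is. Each treatment was present in both: 3 pGal, 2 OVA and 3 saline libraries in batch 1, and 2 of each in batch 2. Age and sex were not given in the labels used here.

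A CD4 T cell that meets its antigen without costimulation can become anergic, be deleted or take on a regulatory fate instead of becoming an effector cell. Anergic CD4 cells are known for inhibitory receptors such as CTLA-4 and PD-1, for the folate receptor FR4 encoded by Izumo1r, for neuropilin-1, and for damped signalling from the antigen receptor. Glycosylated antigens of this kind were designed to reach antigen-presenting cells of the liver and to induce tolerance.

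Levels are normalized CPM, counts scaled to a common library size with TMM factors. In every series of values the pGal libraries stand in the order batch 1 pGal 1, 2 and 3 and batch 2 pGal 1 and 2, and the OVA libraries in the order batch 1 OVA 2 and 3 and batch 2 OVA 1 and 2. Means stand with their SD over 5 pGal, 4 OVA or 5 saline libraries, and log2 fold changes of pGal over OVA with their SE. Libraries held 21.2 to 51.4 M estimated counts after pGal, 33.2 to 62.1 M after OVA and 32.9 to 57.4 M after saline. Cd4, the co-receptor that defines the lineage, was at 859.6, 812, 507, 1191 and 1162 CPM in the pGal libraries and at 701, 643, 896 and 255 CPM in the OVA libraries. Cd8a was at 0.327, 1.12, 86.7, 4.78 and 2.47 CPM in pGal libraries and at 2.09, 2.02, 1.08 and 121 CPM in OVA libraries. Cd4 exceeded Cd8a in every one of them, by the least in batch 2 OVA 2, and the CD8 co-receptor was above 5 CPM in batch 1 pGal 3 and batch 2 OVA 2 alone.

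Those 2 libraries stood apart from the others. Cd79a, a signalling chain of the B cell receptor, was at 10.9, 16.4, 1043, 14.4 and 8.38 CPM in the pGal libraries and at 20.1, 19.1, 26.0 and 1426 CPM in the OVA libraries. The summed level of 17 B cell markers was 16949.9 CPM in batch 1 pGal 3 and 31667 CPM in batch 2 OVA 2. It was 213 to 389 CPM in the other pGal libraries, 391 to 584 CPM in the other OVA libraries and 299.5 to 3228 CPM after saline. The same 2 libraries were also the highest pGal and OVA libraries in the summed myeloid and dendritic cell markers, at 3457 and 2344 CPM, against 154 to 194 CPM in the other pGal and 163 to 215 CPM in the other OVA libraries. They were the highest in 11 NK cell markers as well, with 109.7 and 320.2 CPM, against 17.5 to 40.8 CPM in the other pGal and 22.4 to 29.3 CPM in the other OVA libraries. Plasma cell markers summed to 672 and 679 CPM in these 2, against 107 to 174 CPM in the other pGal and 141 to 162 CPM in the other OVA libraries. Erythroid and platelet markers summed to 535 and 609 CPM in these 2, against 104 to 277 CPM in the other pGal and 237 to 410.2 CPM in the other OVA libraries. All 10 of them that were tested had negative fold changes (median -0.71, and -0.37 without the 2 libraries). Stromal markers summed to 213 and 258 CPM in these 2, against 275 to 302 CPM in the other pGal and 225 to 265 CPM in the other OVA libraries. Of 5 tested, 4 had positive fold changes (median 0.18, and 0.34 without the 2 libraries). Most of that sum was Pecam1, an adhesion molecule of endothelial and blood cells, at 268 ± 34.3 CPM with pGal and 242 ± 20.7 CPM with OVA (SD, n = 5 and 4). No B cell marker was at 0 in any pGal or OVA library. None of the 64 markers of 6 other cell types passed the test described next. With batch 1 pGal 3 and batch 2 OVA 2 in opposite groups, that test could not show equal amounts of other cells. The log2 fold change of Cd79a was 0.73 ± 2.67 (SE), with 4.17 in batch 1 and -5.99 in batch 2. The part of these markers in the results was not tested beyond the values without these 2 libraries. The 2 are called B-rich below, and results are given with and without them. In sorted but bulk RNA, fewer cells of a type and less RNA per cell cannot be told apart.

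**Figure D1:**
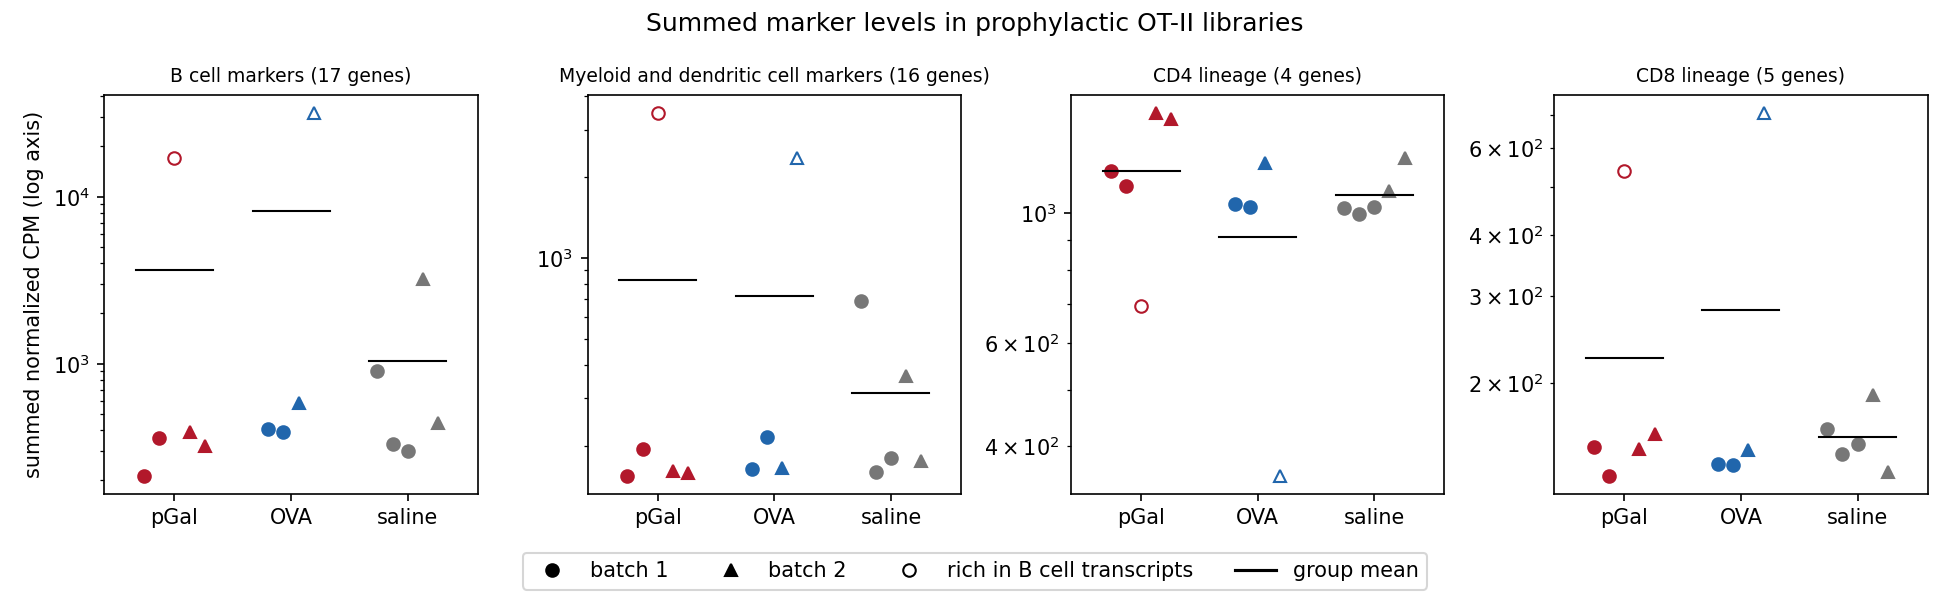
Summed normalized CPM (log axis) of 4 marker lists in each prophylactic OT-II library, with pGal, OVA and saline from left to right, circles for batch 1, triangles for batch 2 and lines for group means. The open symbols, batch 1 pGal 3 and batch 2 OVA 2, lie at 16949.9 and 31667 CPM of B cell markers, above every filled symbol, and lowest in their groups for CD4 lineage genes.

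In pGal against OVA, 264 of 14128 genes tested passed an adjusted p under 0.05 (edgeR's quasi-likelihood test with Benjamini-Hochberg adjustment), which is 1.87% of them. Of these, 157 were higher after pGal (1.11% of genes tested) and 107 were lower (0.757%). All 264 lay on the side of the call in 5 of 5 pGal libraries, each set against the OVA mean of its own batch. The genes were called from these same libraries, so this count is no separate evidence, and it was not made over all genes. The fitted change was over 1 on the log2 scale for 78 of the higher and under -1 for 42 of the lower genes. For 202 of the 264 every pGal library lay on one side of every OVA library, whereas 762 of all genes tested (5.39%) had groups that did not overlap. A test on these same libraries favours genes with separate groups, so this contrast is no separate evidence either. The median log2 fold change of all genes tested was -0.01. Without the B-rich libraries 493 of 14132 genes passed (3.49%), 238 of the 264 among them. The count depended on single libraries: it was 70 without batch 1 OVA 2, 95 without batch 1 OVA 3, 113 without batch 1 pGal 1, 113 without batch 1 pGal 2, 146 without batch 2 pGal 1 and 453 without batch 1 pGal 3. With the saline libraries taken out of the fit it was 122 of 13561 genes tested, 102 of them among the 264. Those libraries enter the filter on low counts, the batch term and the estimate of the spread.

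Receptors and ligands that restrain T cells were among the genes that rose. Of 20 inhibitory receptor and ligand genes 3 were higher after pGal and none was lower (15% called, median log2 fold change 0.06). Each list count here and below stands against 1.87% called of all genes tested, or 3.49% without the B-rich libraries. The lists were chosen with earlier results of these data known, so their counts are not an unbiased sample of such genes. Ctla4, the receptor that competes with CD28 for its ligands, was at 176, 169, 114, 259 and 168 CPM in pGal libraries, against 36.5, 53.3, 71.2 and 28.9 CPM in OVA libraries. All 5 pGal libraries lay above all 4 OVA libraries, and saline libraries averaged 18.9 ± 4.39 CPM (SD, n = 5). The log2 fold change was 1.90 ± 0.29 (SE) with an adjusted p of 0.00794, and 1.83 (adjusted p = 0.00244) without the B-rich libraries. Cd200, a membrane protein that signals to the inhibitory receptor CD200R on myeloid cells, was at 167, 157, 113, 175 and 245 CPM in pGal libraries, against 39.7, 48.3, 71.1 and 67.2 CPM in OVA libraries and 22.0 ± 5.98 CPM after saline. Its groups did not overlap either (log2 1.65 ± 0.22, adjusted p = 0.00465). Lag3, whose product binds MHC class II and inhibits the cell, was scarce. It was at 7.25, 7.75, 4.09, 2.45 and 4.26 CPM in pGal libraries and at 1.38, 1.26, 1.61 and 1.27 CPM in OVA libraries (log2 1.73 ± 0.38, adjusted p = 0.0380), and its call was lost without any one of batch 1 pGal 1, batch 1 pGal 2, batch 2 pGal 2, batch 1 OVA 3 and batch 1 OVA 2 (adjusted p up to 0.155).

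Pdcd1, Tigit and Havcr2 did not pass. Pdcd1, which encodes PD-1, was at 53.6, 52.6, 37.1, 96.0 and 95.6 CPM in pGal libraries and at 24.6, 27.7, 42.4 and 24.7 CPM in OVA libraries. The lowest pGal library, the B-rich batch 1 pGal 3, lay below the highest OVA library, batch 2 OVA 1 (log2 1.16 ± 0.32, adjusted p = 0.0881). The adjusted p of Pdcd1 was 0.0491 without batch 1 pGal 3. Tigit, a receptor that shares its ligands with the costimulatory CD226, averaged 1.29 ± 0.777 CPM in pGal libraries, against 3.72 ± 0.648 CPM in OVA libraries (adjusted p = 0.142), with every pGal library below every OVA library. Havcr2, which encodes TIM-3 and which myeloid cells also express, reached 6.15 CPM in batch 1 pGal 3 and 12.7 CPM in batch 2 OVA 2, and was under 1 CPM in the other 7 libraries.

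Some genes associated with anergic CD4 cells were also higher. Of 18 anergy surface, ubiquitin ligase and diacylglycerol kinase genes, 3 were higher after pGal and none was lower (median 0.38). That is 16.7% called, against 1.87% of all genes tested. The other 15 were not called, and 12 of the 18 had positive fold changes. Izumo1r, which encodes the folate receptor FR4, was at 451, 431, 267, 559.5 and 758 CPM in pGal libraries, against 140.1, 115, 184 and 61.8 CPM in OVA libraries and 66.4 ± 19.6 CPM after saline. The lowest pGal library was again the B-rich one, and it still lay above every OVA library (log2 1.96 ± 0.31, adjusted p = 0.00866, and 1.81 without the B-rich libraries). Nrp1, neuropilin-1, a co-receptor for semaphorins also carried by thymus-derived regulatory T cells, was at 104, 114, 68.9, 99.6 and 89.5 CPM in pGal libraries, against 31.8, 27.7, 24.9 and 29.4 CPM in OVA libraries. The groups lay far apart, and saline libraries averaged 29.0 ± 5.83 CPM. With an adjusted p of 0.00136 (log2 1.75 ± 0.18) Nrp1 had the smallest p of all genes tested. Rgs1, a brake on chemokine receptor signalling, was at 58.7, 58.1, 52.9, 155 and 88.7 CPM in pGal libraries and at 27.1, 29.7, 46.1 and 47.5 CPM in OVA libraries (log2 1.17 ± 0.17, adjusted p = 0.00637). Without the B-rich libraries Dgkz, a diacylglycerol kinase that dampens antigen receptor signals, and Nt5e, which encodes CD73, also passed, so that 5 of the 18 did. In that fit 3.49% of all genes tested passed. Ctla4, Cd200, Izumo1r, Nrp1 and Rgs1 passed without any one of the 9 pGal and OVA libraries, with adjusted p no higher than 0.0422.

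The promoters of 3 of these genes and of Ly6c1, described below, are shown because the results on either side turn on them. They are RefSeq windows of GRCm38.p6, 250 bases before to 50 after the gene start, written along the gene's own strand. Capitals mark the core of the NFAT site, GGAAA or its reverse complement. Ctla4 lies at chr1:60908775-60909074 on the plus strand, Izumo1r at chr9:14903718-14904017 on the minus strand, Nrp1 at chr8:128358823-128359122 on the plus strand and Ly6c1 at chr15:75048788-75049087 on the minus strand.
Ctla4: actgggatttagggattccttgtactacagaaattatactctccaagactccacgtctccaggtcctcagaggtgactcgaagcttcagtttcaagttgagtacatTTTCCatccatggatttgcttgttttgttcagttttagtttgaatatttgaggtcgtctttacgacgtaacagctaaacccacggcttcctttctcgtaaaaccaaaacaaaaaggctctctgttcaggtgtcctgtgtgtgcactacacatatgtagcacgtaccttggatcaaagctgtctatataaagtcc
Izumo1r: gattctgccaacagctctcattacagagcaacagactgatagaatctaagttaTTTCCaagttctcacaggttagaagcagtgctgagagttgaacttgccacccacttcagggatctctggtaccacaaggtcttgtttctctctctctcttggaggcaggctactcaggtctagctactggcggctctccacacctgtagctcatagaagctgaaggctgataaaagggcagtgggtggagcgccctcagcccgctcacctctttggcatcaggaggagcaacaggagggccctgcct
Nrp1: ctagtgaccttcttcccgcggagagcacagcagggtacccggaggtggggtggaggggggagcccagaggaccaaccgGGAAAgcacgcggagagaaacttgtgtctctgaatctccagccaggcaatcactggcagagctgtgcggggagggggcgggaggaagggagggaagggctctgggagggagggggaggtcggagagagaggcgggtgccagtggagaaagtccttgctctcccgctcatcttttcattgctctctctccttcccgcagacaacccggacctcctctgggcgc
Ly6c1: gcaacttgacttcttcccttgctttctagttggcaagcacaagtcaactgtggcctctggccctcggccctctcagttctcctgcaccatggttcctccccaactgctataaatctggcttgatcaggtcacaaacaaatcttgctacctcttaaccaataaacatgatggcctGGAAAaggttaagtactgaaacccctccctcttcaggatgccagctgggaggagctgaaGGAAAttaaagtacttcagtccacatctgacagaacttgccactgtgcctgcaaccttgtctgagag
The core occurred in each of the 4 windows, once in the first 3 and 2 times in Ly6c1, and in 61.3% of 27025 promoters of the same length. The AP-1 motif TGANTCA occurred in none of the 4 and in 7.93% of all promoters. Such a match is a string of letters and not a shown binding site.

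Among secreted and membrane-bound ligands, Tnfsf11 was called, 1 of 14 cytokine genes tested (median 0.44). Tnfsf11 encodes RANKL, which T cells present to dendritic cells and osteoclast precursors. It was at 47.8, 55.1, 30.8, 103 and 69.4 CPM in pGal libraries, against 13.1, 16.2, 28.5 and 9.65 CPM in OVA libraries and 13.8 ± 5.70 CPM after saline. The groups did not overlap (log2 1.86 ± 0.30, adjusted p = 0.00883), and the gene passed without any one library. Wnt10a, a secreted Wnt protein, was at 56.0, 48.9, 27.0, 151 and 108 CPM in pGal libraries and at 7.19, 11.5, 18.1 and 4.61 CPM in OVA libraries (log2 2.80 ± 0.47, adjusted p = 0.0105). Saline libraries averaged 1.41 ± 1.00 CPM, and without batch 1 OVA 2 its adjusted p was 0.0518. Il2, the growth factor of activated T cells, was at 6.31, 3.77, 2.48, 8.92 and 6.23 CPM in pGal libraries and at 1.62, 1.69, 2.12 and 0.340 CPM in OVA libraries. Although these values did not overlap, the gene missed the threshold (adjusted p = 0.176). Ifng averaged 2.71 ± 1.54 CPM in pGal libraries, against 4.21 ± 3.61 CPM in OVA libraries (adjusted p = 0.874).

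Cytokine receptors moved both ways, 1 of 19 higher and 2 lower (median -0.16). Il2rb, the signalling chain shared by the IL-2 and IL-15 receptors, was at 421, 403, 376, 602 and 487 CPM in pGal libraries and at 146, 171, 264 and 414 CPM in OVA libraries. The B-rich batch 2 OVA 2 was the only OVA library within the pGal range (log2 0.99 ± 0.20, adjusted p = 0.0229, and 1.26 with 0.00165 without the B-rich libraries). Il18r1, a receptor chain for IL-18, was lower, at 5.38, 5.31, 10.9, 12.5 and 4.77 CPM in pGal libraries, against 21.1, 19.3, 20.4 and 25.0 CPM in OVA libraries (log2 -1.44 ± 0.27, adjusted p = 0.0162). Il4ra, the signalling chain for IL-4 and IL-13, was at 286, 256, 357, 388 and 343 CPM in pGal libraries, against 594, 447, 526 and 498 CPM in OVA libraries (log2 -0.66 ± 0.13, adjusted p = 0.0184). Il2ra, the high-affinity IL-2 receptor chain, averaged 31.5 ± 18.3 CPM in pGal libraries, against 40.3 ± 20.9 CPM in OVA libraries and was not called. Single libraries ended these 3 calls: Il2rb without any one of batch 1 pGal 1, batch 1 pGal 2, batch 2 pGal 1, batch 1 OVA 3, batch 1 OVA 2 and batch 2 OVA 1 (adjusted p up to 0.105), Il18r1 without any one of batch 1 pGal 2, batch 1 OVA 3 and batch 1 OVA 2 (up to 0.0733) and Il4ra without any one of batch 1 pGal 1, batch 1 pGal 2 and batch 1 OVA 2 (up to 0.0843). Without the B-rich libraries 3 receptor genes were higher and 4 lower, among them both chains of the interferon gamma receptor on the lower side (Ifngr1 and Ifngr2).

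**Figure D2:**
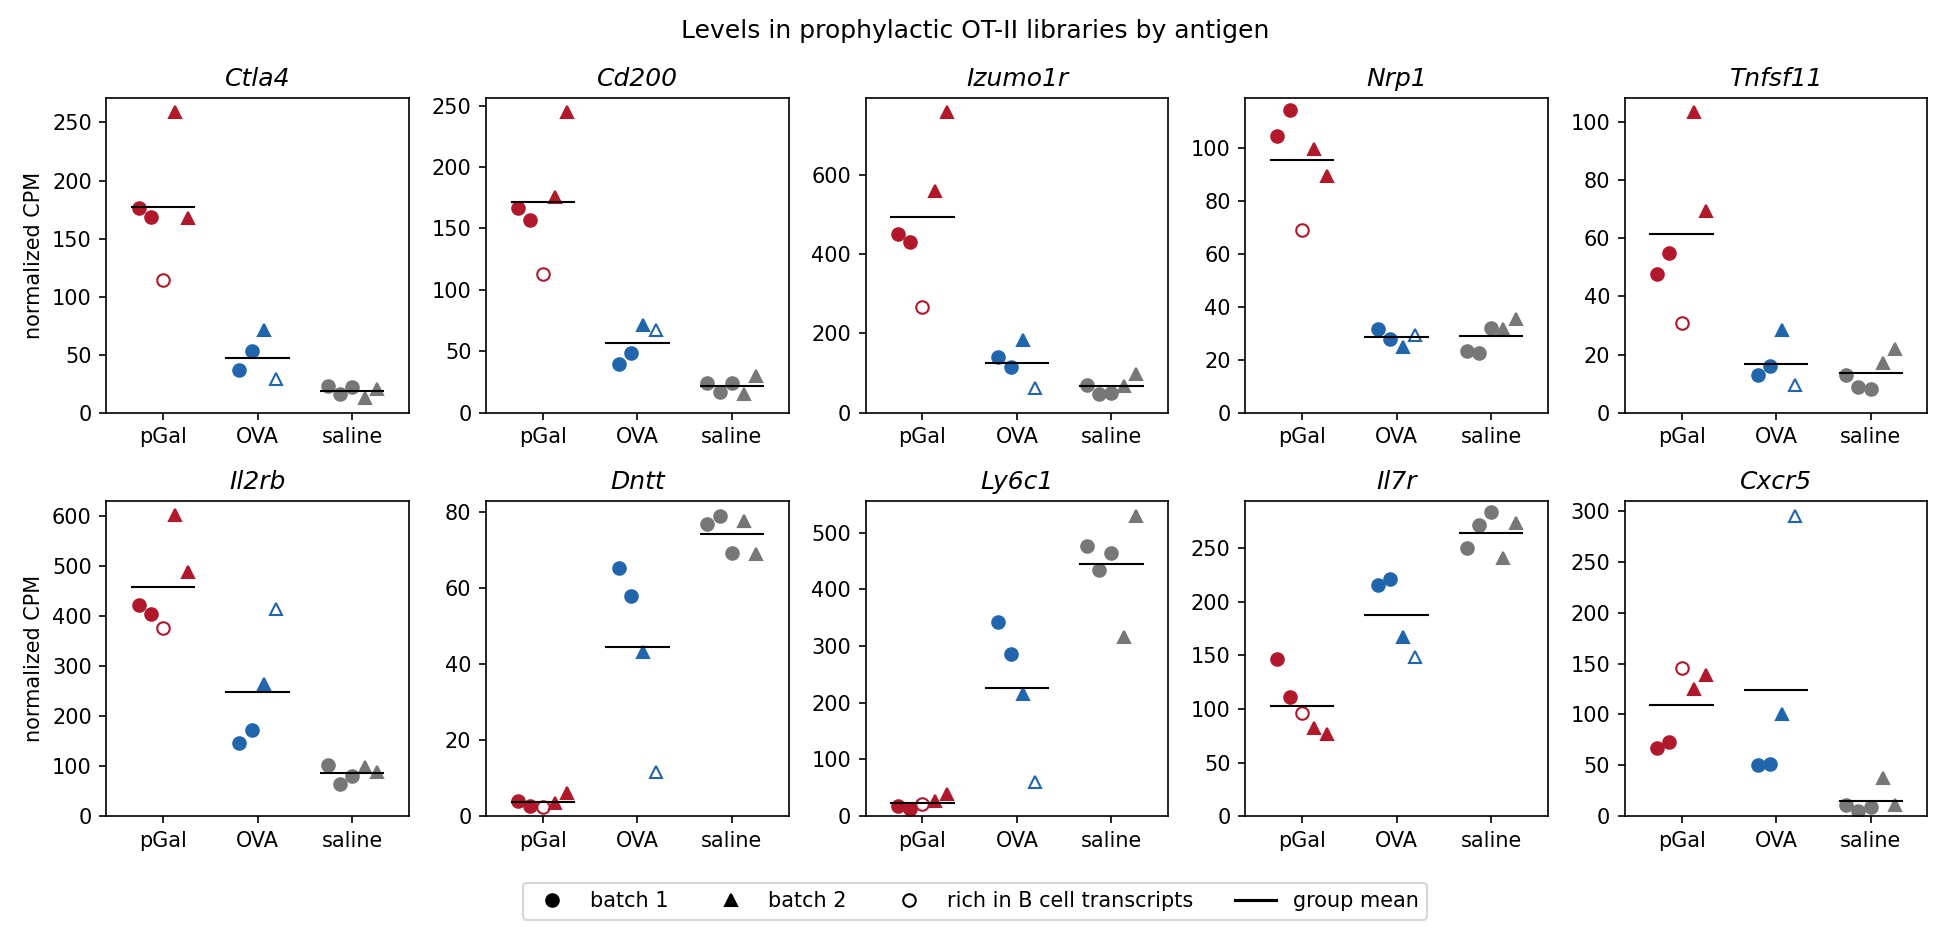
Normalized CPM (linear axes from 0) of 10 genes in each prophylactic OT-II library, with pGal, OVA and saline from left to right, circles for batch 1, triangles for batch 2, open symbols for the B-rich libraries and lines for group means. The pGal libraries do not overlap the OVA libraries for Ctla4, Cd200, Izumo1r, Nrp1, Tnfsf11, Dntt, Ly6c1 and Il7r, and overlap them for Il2rb and Cxcr5.

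Among transcription factors of the antigen response 1 gene passed. Nfatc1, an NFAT factor induced by the antigen receptor, was at 711, 705, 564, 696 and 599 CPM in pGal libraries, against 405, 422, 423 and 512 CPM in OVA libraries (log2 0.58 ± 0.11, adjusted p = 0.0195). It was the only one of 18 exhaustion and antigen receptor response factors that passed (5.56%, against 1.87% of all genes tested, median 0.24). Its call was lost without any one of batch 1 pGal 1, batch 1 pGal 2, batch 2 pGal 1, batch 1 OVA 3, batch 1 OVA 2 and batch 2 OVA 1 (adjusted p up to 0.0916). Without the B-rich libraries 3 of the 18 were higher and 1 was lower, with Tox, Irf4 and Fosl2 added. Tox, a factor of exhausted and follicular helper cells, was at 214, 235, 119, 228 and 205 CPM in pGal libraries and at 138, 139, 162 and 61.9 CPM in OVA libraries. The lowest value in each group belonged to the B-rich library (log2 0.68 ± 0.25, adjusted p = 0.199), and the adjusted p was 0.00890 without those 2. Egr2, a factor of the anergy programme, averaged 34.0 ± 9.44 CPM in pGal libraries and 21.5 ± 6.46 CPM in OVA libraries (adjusted p = 0.217), and the early response gene Nr4a1 averaged 251 ± 86.6 CPM and 283 ± 87.3 CPM (adjusted p = 0.865).

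Of 16 follicular helper genes, 2 were higher and none lower (12.5% called, against 1.87% of all genes tested, median 0.32). Slamf6, a homotypic receptor of the SLAM family, was at 585, 564, 366, 659 and 601 CPM in pGal libraries, against 267, 266, 333 and 229 CPM in OVA libraries (log2 1.03 ± 0.18, adjusted p = 0.0105), and passed without any one library. Maf, a factor that drives IL-21 and IL-10, was at 24.0, 18.3, 14.3, 18.2 and 19.8 CPM in pGal libraries and at 6.93, 8.12, 7.41 and 8.66 CPM in OVA libraries (log2 1.25 ± 0.29, adjusted p = 0.0447). Its call was lost without any one of batch 1 pGal 1, batch 1 pGal 2, batch 2 pGal 1, batch 2 pGal 2, batch 1 OVA 3, batch 1 OVA 2 and batch 2 OVA 1 (adjusted p up to 0.168). The genes that define the subset did not pass. Cxcr5, the receptor that leads T cells to follicles and that B cells also express, was at 67.0, 72.8, 145, 125 and 138 CPM in pGal libraries and at 50.5, 51.7, 100.1 and 295 CPM in OVA libraries (adjusted p = 0.899), and averaged 14.8 ± 13.0 CPM after saline. Its highest value in either group was that of the B-rich library. Bcl6, the follicular master regulator, averaged 34.2 ± 9.89 CPM in pGal libraries and 34.9 ± 23.1 CPM in OVA libraries (adjusted p = 0.806). With the B-rich libraries left out Icos, Id3 and Tnfsf8 also passed on the higher side, which made 5 of 16. In that fit 3.49% of all genes tested passed.

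None of 16 regulatory T cell genes passed (median 0.20), a list too short for this to differ from the 1.87% called of all genes tested. Foxp3, their lineage factor, was at 16.5, 17.5, 22.9, 41.3 and 29.3 CPM in pGal libraries and at 20.7, 18.4, 19.0 and 39.3 CPM in OVA libraries. The groups overlapped (log2 0.10 ± 0.24, adjusted p = 0.942), and saline libraries averaged 19.2 ± 4.69 CPM. Leaving out the B-rich pair, 1 of the 16 was higher, the actin-capping protein gene Capg. With the B cell marker sum as a covariate 2 of the 16 were higher. The count depends on how genes were placed in lists: Nrp1, which regulatory T cells also carry, was called but counted with the anergy genes.

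Genes of naive and recently produced T cells included the 2 largest falls among the named genes, those of Dntt and Ly6c1. Dntt, terminal transferase, which adds nucleotides to antigen receptor genes in the thymus and persists in recent emigrants, was at 3.88, 2.72, 2.36, 3.34 and 6.00 CPM in pGal libraries. It was at 65.4, 58.0, 43.2 and 11.5 CPM in OVA libraries and averaged 74.4 ± 4.89 CPM after saline. Every pGal library lay below every OVA library, and the lowest OVA library was the B-rich one (log2 -3.58 ± 0.42, adjusted p = 0.00223, and -3.80 without the B-rich libraries). Ly6c1, which encodes a surface protein of the Ly6C antigen, was at 18.3, 12.9, 21.2, 27.0 and 39.4 CPM in pGal libraries, against 342, 286, 215 and 59.4 CPM in OVA libraries and 444 ± 79.3 CPM after saline (log2 -3.23 ± 0.45, adjusted p = 0.00637). Its near-identical neighbour Ly6c2 makes the split of reads between the copies uncertain. Ccr9, a chemokine receptor of thymocytes and gut-homing cells, was at 4.16, 3.46, 19.4, 2.82 and 4.94 CPM in pGal libraries and at 35.5, 32.8, 28.8 and 41.7 CPM in OVA libraries (log2 -2.43 ± 0.48, adjusted p = 0.0209). The B-rich library was highest among pGal libraries. Without any one of batch 1 pGal 1, batch 1 pGal 2, batch 2 pGal 1, batch 2 pGal 2, batch 1 OVA 3 and batch 1 OVA 2 the call was lost (adjusted p up to 0.0696), and without both B-rich libraries it was -3.06 (adjusted p = 1.39e-05).

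Of 20 naive and memory genes 3 were lower and 1 was higher (20% called, against 1.87% of all genes tested, median -0.19). Il7r, the IL-7 receptor chain that keeps resting T cells alive, was at 146, 111, 96.0, 82.2 and 76.7 CPM in pGal libraries, against 215, 221, 167 and 148 CPM in OVA libraries and 264 ± 17.6 CPM after saline. The highest pGal library lay just under the lowest OVA library (log2 -0.92 ± 0.13, adjusted p = 0.00637), and the call held without any one library. Txk, a Tec-family kinase, was at 115, 107, 92.1, 89.5 and 80.6 CPM in pGal libraries and at 217, 209, 115 and 90.6 CPM in OVA libraries. The groups overlapped across batches, though not within either batch (log2 -1.04 in batch 1 and -0.27 in batch 2). The call (adjusted p = 0.0338) was lost in 8 of the 9 fits that leave out a library, the exception being batch 2 OVA 2 (adjusted p up to 0.136). Dapl1, a gene of resting T cells, went the other way, at 128, 116, 89.4, 61.7 and 113 CPM in pGal libraries, against 30.3, 39.8, 50.6 and 28.7 CPM in OVA libraries (log2 1.45 ± 0.26, adjusted p = 0.0122, and 0.0696 without batch 1 OVA 2). Ccr7, the chemokine receptor for lymph node entry, averaged 867 ± 69.0 CPM in pGal libraries and 969.8 ± 256 CPM in OVA libraries. Tcf7, a factor of naive and stem-like T cells, averaged 2661 ± 471 CPM in pGal libraries and 2111 ± 898 CPM in OVA libraries, and neither gene passed. With the B-rich libraries left out 6 of the 20 were lower, with Satb1, Bcl2 and Igfbp4 added, and 1 was higher. Over 11 young T cell and thymic genes Dntt and Ccr9 were lower and none was higher (median 0.00).

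Negative regulators of signalling rose in a small set. Of 22 signalling feedback genes 3 were higher and none was lower (13.6% called, against 1.87% of all genes tested, median -0.01). Spry1, a Sprouty protein that restrains the Ras and ERK pathway, was at 37.3, 43.8, 27.2, 45.3 and 42.6 CPM in pGal libraries, against 4.09, 8.23, 13.4 and 7.70 CPM in OVA libraries (log2 2.26 ± 0.37, adjusted p = 0.00883). Dusp6, the phosphatase of ERK, was at 130.3, 115, 117, 192 and 186 CPM in pGal libraries and at 68.8, 66.8, 86.7 and 125 CPM in OVA libraries. The B-rich batch 2 OVA 2 was the one OVA library inside the pGal range (log2 0.83 ± 0.13, adjusted p = 0.00794). Rgs3, an inhibitor of G protein signalling, was at 178, 165, 139.7, 248 and 223 CPM in pGal libraries and at 76.1, 89.0, 169 and 109.8 CPM in OVA libraries (log2 0.86 ± 0.14, adjusted p = 0.00888, and 0.0518 without batch 1 OVA 2). Ubash3b, a phosphatase that acts on ZAP-70 below the antigen receptor, was at 77.5, 69.0, 52.0, 70.2 and 82.6 CPM in pGal libraries, against 32.6, 44.2, 31.0 and 30.9 CPM in OVA libraries (log2 1.02 ± 0.16, adjusted p = 0.00883). It was the only called gene among 21 of the antigen receptor complex and proximal signalling (median 0.25). Spry1, Dusp6 and Ubash3b passed without any one library.

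Adhesion and homing genes changed in 5 of 22 cases, 4 higher and 1 lower (22.7% called, against 1.87% of all genes tested, median 0.06). Cd44, the hyaluronan receptor that marks antigen-experienced T cells, was at 201, 191, 184, 266 and 198 CPM in pGal libraries, against 95.4, 91.7, 128 and 149 CPM in OVA libraries and 68.1 ± 12.9 CPM after saline (log2 0.89 ± 0.14, adjusted p = 0.00794). The groups did not overlap. Ccr10, a skin-homing chemokine receptor, was at 12.1, 12.2, 6.09, 15.3 and 16.9 CPM in pGal libraries and at 1.01, 1.69, 0.875 and 2.60 CPM in OVA libraries (log2 3.04 ± 0.52, adjusted p = 0.0105). The integrin genes Itgb1 (log2 0.63 ± 0.13, adjusted p = 0.0273) and Itgal, named here after its value was seen (log2 0.48 ± 0.11, adjusted p = 0.0481), were higher and overlapped between groups. Gpr183, the oxysterol receptor EBI2, was lower, at 145, 142, 163, 128 and 132 CPM in pGal libraries, against 261, 217, 189 and 173 CPM in OVA libraries (log2 -0.58 ± 0.10, adjusted p = 0.0118). The calls of Ccr10 and Gpr183 were lost without batch 1 OVA 2 (adjusted p = 0.0584 and 0.0628). Itgb1 was lost without any one of batch 1 pGal 1, batch 1 pGal 2, batch 2 pGal 1, batch 1 OVA 3, batch 1 OVA 2 and batch 2 OVA 1 (up to 0.113), and Itgal without any one of batch 1 pGal 1, batch 1 pGal 2, batch 2 pGal 1, batch 1 OVA 3, batch 1 OVA 2 and batch 2 OVA 2 (up to 0.138).

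Calls among interferon-inducible genes were mainly on the lower side, in the GTPase list. Of 16 interferon gamma inducible GTPase genes 4 were lower and none higher (25% called, median -0.20), against 1.87% called of all genes tested. Of 27 interferon-stimulated genes 1 was higher (3.70%, median 0.29), and a single gene cannot tell this list from that share. Without the B-rich libraries 1 was higher and 1, Oasl1, was lower. Gbp7, a guanylate-binding protein gene, was at 96.7, 102, 86.4, 99.7 and 96.0 CPM in pGal libraries, against 146, 174, 162 and 117 CPM in OVA libraries (log2 -0.65 ± 0.11, adjusted p = 0.00947), and passed without any one library. Gbp2 averaged 79.3 ± 13.6 CPM in pGal libraries, against 113 ± 12.0 CPM in OVA libraries (log2 -0.50 ± 0.10, adjusted p = 0.0252). The neighbouring Tgtp1 and Tgtp2, T cell specific GTPases with near-identical sequences, were lower by log2 -1.17 ± 0.21 and -0.70 ± 0.13 (adjusted p = 0.0144 for both), and how their reads were split between them is uncertain. Ifi27l2a, an interferon-induced mitochondrial protein gene, rose to 764, 748, 611, 504 and 1013 CPM in pGal libraries, against 302, 355, 327 and 189.6 CPM in OVA libraries (log2 1.31 ± 0.23, adjusted p = 0.0122). Single libraries ended the calls of Gbp2 (batch 1 pGal 1, batch 1 pGal 2, batch 2 pGal 1, batch 1 OVA 3, batch 1 OVA 2 and batch 2 OVA 1, adjusted p up to 0.107), of Tgtp1 (batch 1 pGal 1, batch 1 pGal 2, batch 1 OVA 3 and batch 1 OVA 2, up to 0.0628), of Tgtp2 (batch 1 pGal 1, batch 1 OVA 3 and batch 1 OVA 2, up to 0.0610) and of Ifi27l2a (batch 1 OVA 2, 0.0616).

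Of 21 survival and death genes 2 were higher (median 0.19). Bcl2a1b, an antiapoptotic member of the BCL2 family with near-identical copies, was at 74.8, 68.3, 66.9, 82.8 and 97.7 CPM in pGal libraries, against 24.3, 31.1, 40.7 and 56.2 CPM in OVA libraries (log2 1.11 ± 0.19, adjusted p = 0.0105). Its groups did not overlap. Bcl2a1b was lost without batch 1 OVA 3 and batch 1 OVA 2 (adjusted p up to 0.0528), taken singly.

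**Figure D3:**
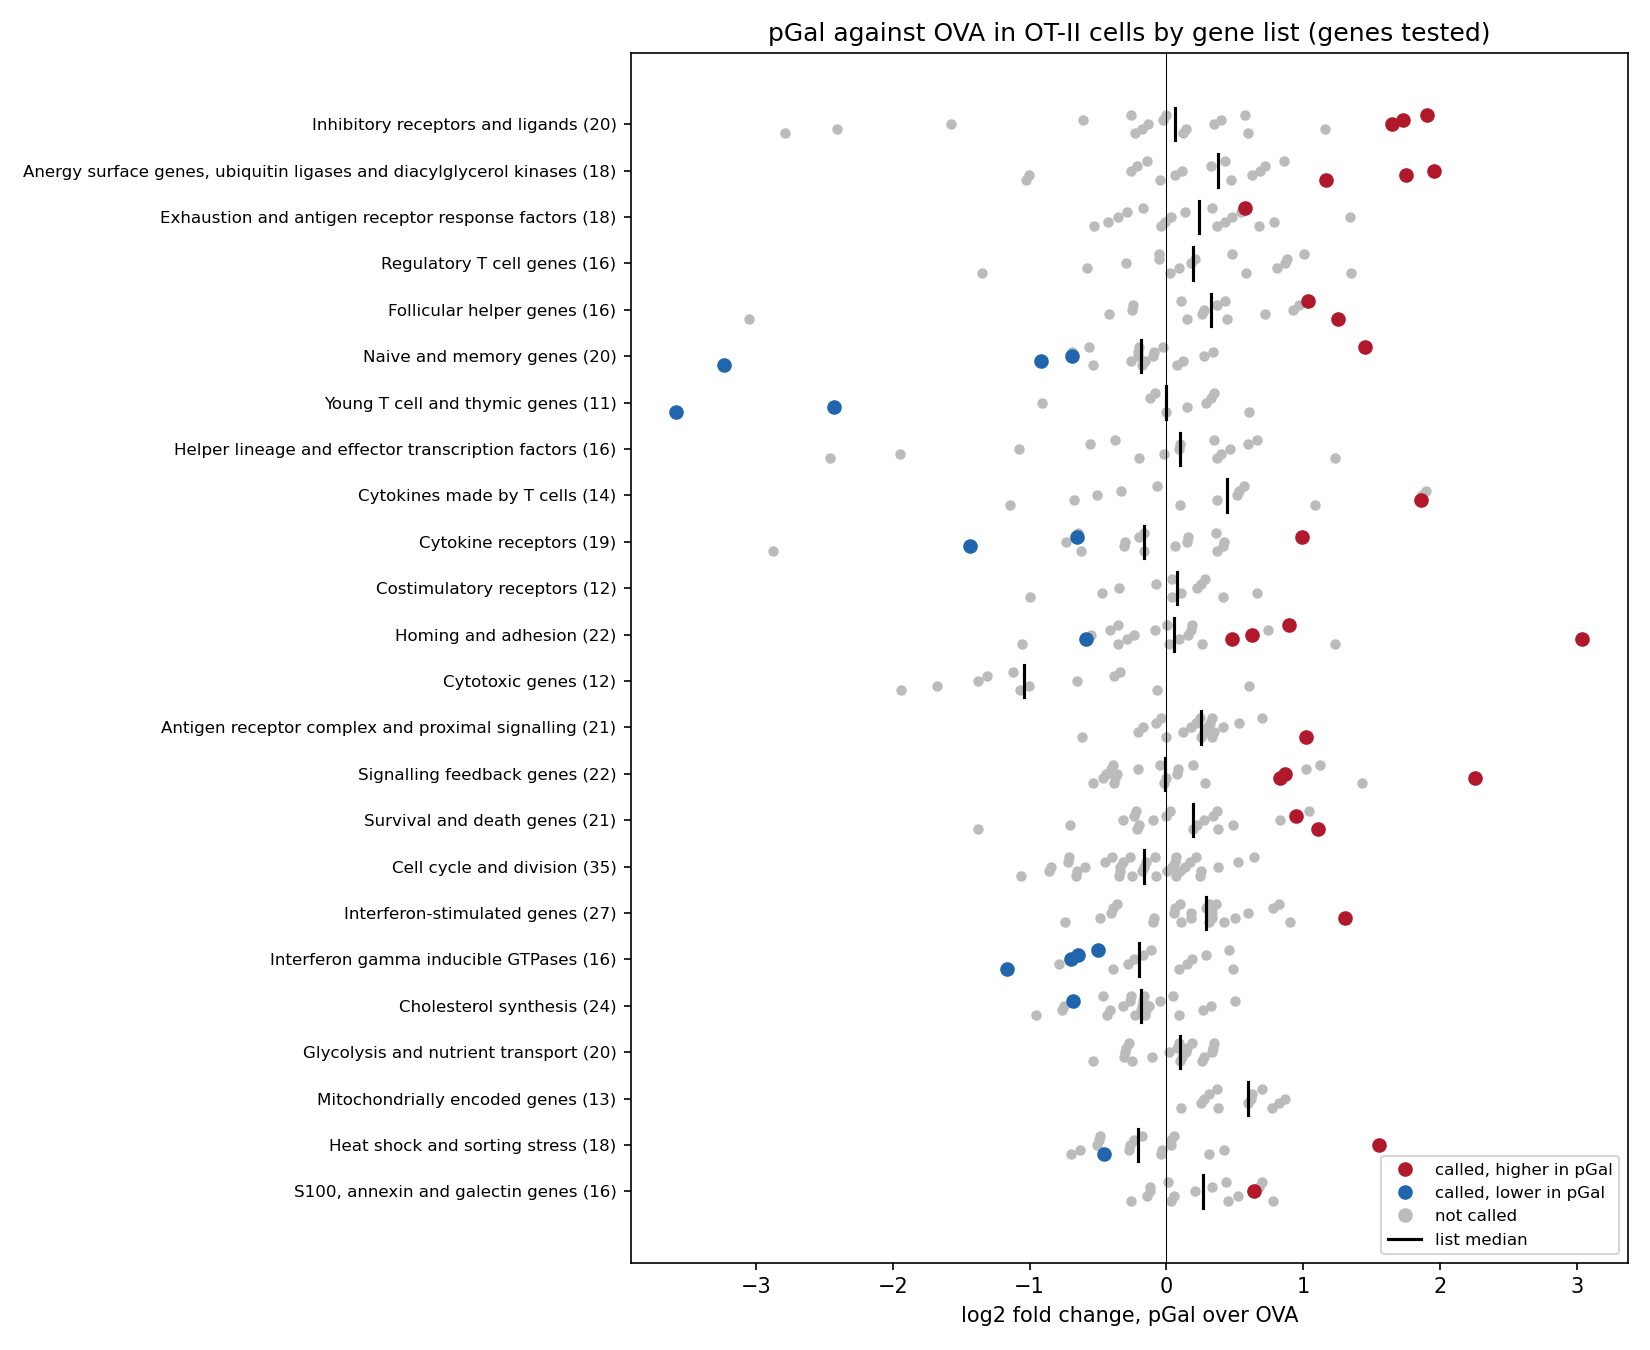
Log2 fold changes of pGal over OVA (x axis) for the genes tested in each of 24 gene lists (rows, number tested in parentheses), with red for called and higher, blue for called and lower, grey for not called and a black line for the list median. The largest changes are Dntt at -3.58, Ly6c1 at -3.23 and Ccr10 at 3.04, while list medians lie between -1.04 (12 cytotoxic genes) and 0.60 (13 mitochondrially encoded genes).

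Other lists showed few or no calls. With 1.87% of all genes tested called, lists of 12 to 35 genes are too short for a count of 0 to differ from that share. None of 35 cell cycle genes passed (median -0.16). Mki67, a marker of dividing cells, was at 12.7, 14.5, 15.4, 54.2 and 18.7 CPM in pGal libraries and at 8.38, 14.4, 48.3 and 39.8 CPM in OVA libraries, and averaged 4.47 ± 3.22 CPM after saline. Batch 2 pGal 1 and both batch 2 OVA libraries stood above the rest, so that the spread within each group was wider than the difference between them (adjusted p = 0.990). None of 12 cytotoxic genes passed (median -1.04, and -0.39 without the B-rich libraries, with Prf1 and Ctsw then lower), none of 16 helper lineage factors (median 0.10), none of 12 costimulatory receptors (median 0.08) and none of 20 glycolysis and nutrient transport genes (median 0.10). Leaving out the B-rich pair, 2 helper lineage factors (Bhlhe40 and Hopx) were higher and 1 (Prdm1) was lower, the costimulatory Tnfrsf25 was lower and the cell cycle gene Mcm5 was lower.

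Of 24 cholesterol synthesis genes 1 was lower, Lss, lanosterol synthase, at 18.5 ± 2.98 CPM in pGal libraries and 29.4 ± 2.63 CPM in OVA libraries (adjusted p = 0.0407). The list's median was -0.18, and -0.33 without the B-rich libraries, when 6 of the 24 were lower. In that fit 3.49% of all genes tested passed. The call of Lss was lost in 8 of the 9 fits that leave out a library, the exception being batch 1 pGal 3 (adjusted p up to 0.143). Of 16 S100, annexin and galectin genes Vim, the intermediate filament vimentin, was higher (log2 0.64 ± 0.12, adjusted p = 0.0157), and it was lost without batch 1 OVA 3 and batch 1 OVA 2, taken singly (up to 0.0832). Among 18 heat shock and sorting stress genes Ddit4, an inhibitor of mTORC1, was higher at 102, 79.1, 52.4, 72.9 and 64.0 CPM in pGal libraries, against 20.3, 23.9, 42.7 and 19.8 CPM in OVA libraries (log2 1.55 ± 0.29, adjusted p = 0.0172). The co-chaperone Dnaja1 was lower (log2 -0.46 ± 0.10, adjusted p = 0.0315, and 0.0681 without the B-rich libraries). Ddit4 was lost without any one of batch 1 pGal 2, batch 1 OVA 3 and batch 1 OVA 2 (up to 0.0849), and Dnaja1 without any one of batch 1 pGal 1, batch 1 pGal 2, batch 2 pGal 2, batch 1 OVA 3, batch 1 OVA 2 and batch 2 OVA 2 (up to 0.103).

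The 13 mitochondrially encoded genes, which also vary with cell state and RNA quality, all had positive fold changes, and none passed (median 0.60). Their summed level was 12601, 11437, 10959, 18037 and 22393 CPM in pGal libraries, against 4587, 9707, 16725 and 10370.5 CPM in OVA libraries. Within each batch the groups were ordered in the same way, and across batches they overlapped. Saline libraries ranged over 6983 to 18383 CPM. The part of this difference in the gene changes above was not tested.

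The genes with the largest fold changes among those with at least 10 CPM in the higher group were mostly outside the lists. Synpo, synaptopodin, an actin-associated protein, was at 58.2, 82.6, 29.7, 56.7 and 66.6 CPM in pGal libraries, against 5.18, 8.61, 11.0 and 3.34 CPM in OVA libraries (log2 3.09 ± 0.41, adjusted p = 0.00465). Nrn1, neuritin, a membrane-anchored protein first known from neurons, was at 20.8, 24.1, 13.3, 24.6 and 27.4 CPM in pGal libraries, against 2.41, 3.56, 3.09 and 3.43 CPM in OVA libraries (log2 2.82 ± 0.29, adjusted p = 0.00136). Endod1, a gene for an endonuclease-domain protein, was at 155, 143, 88.7, 219 and 179 CPM in pGal libraries, against 15.5, 19.8, 34.7 and 49.1 CPM in OVA libraries (log2 2.52 ± 0.29, adjusted p = 0.00223). In all of these the lowest pGal library, batch 1 pGal 3, still exceeded the highest OVA library. Ppic, cyclophilin C, was at 42.0, 49.5, 23.0, 65.1 and 56.7 CPM in pGal libraries, against 3.85, 7.92, 9.67 and 5.60 CPM in OVA libraries (log2 2.84 ± 0.42, adjusted p = 0.00717). These 4 genes passed without any one library.

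The calls of the remaining high folds were lost more often when one library was left out. The folds themselves stayed high in those fits, at log2 3.30 to 4.19 for Mpp2 and 3.02 to 3.35 for Slc9b2. Mpp2, a membrane scaffold gene, averaged 12.8 ± 3.71 CPM in pGal libraries, against 1.05 ± 0.703 CPM in OVA libraries, with the largest rise among the named genes (log2 3.59 ± 0.85) and an adjusted p of 0.0487. It was lost in 8 of 9 fits that leave out a library (up to 0.177), the exception being batch 1 pGal 3. Slc9b2, a sodium proton exchanger, averaged 20.8 ± 4.22 CPM in pGal libraries, against 2.47 ± 0.525 CPM in OVA libraries (log2 3.14 ± 0.60, adjusted p = 0.0184), and was lost without any one of batch 1 pGal 2, batch 1 OVA 3, batch 1 OVA 2 and batch 2 OVA 1 (up to 0.0849). D830030K20Rik and Gm2237, gene models on chromosome 14 whose reads may be shared with similar copies, were higher by log2 2.91 ± 0.54 and 2.29 ± 0.42 (adjusted p = 0.0148 and 0.0155). Without batch 1 OVA 2 neither of them passed (adjusted p = 0.0691 and 0.0733).

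On the lower side Pdlim4, a cytoskeletal PDZ and LIM protein, was at 2.25, 4.58, 6.39, 2.14 and 2.92 CPM in pGal libraries, against 27.8, 26.7, 20.4 and 8.20 CPM in OVA libraries (log2 -2.55 ± 0.31, adjusted p = 0.00274). Enpp4, an ectonucleotidase-family gene, was at 4.44, 5.45, 10.9, 6.26 and 8.58 CPM in pGal libraries, against 32.9, 39.2, 24.9 and 26.4 CPM in OVA libraries (log2 -2.11 ± 0.25, adjusted p = 0.00223). Atp1b1, a subunit of the sodium pump, was at 17.8, 19.6, 34.5, 22.1 and 32.0 CPM in pGal libraries, against 97.2, 90.0, 77.0 and 52.2 CPM in OVA libraries (log2 -1.64 ± 0.21, adjusted p = 0.00465). None of these 3 overlapped between groups, and batch 2 OVA 2 was nearest to the pGal libraries for Pdlim4 and Atp1b1. Myo6, an unconventional myosin, averaged 4.39 ± 2.27 CPM in pGal libraries and 20.3 ± 5.05 CPM in OVA libraries (adjusted p = 0.00928), and the membrane skeleton gene Epb41 averaged 159 ± 26.5 CPM and 298 ± 46.4 CPM (adjusted p = 0.00637). All 5 of these passed without any one library. Padi2, a peptidylarginine deiminase, was lower by log2 -1.58 ± 0.30 (adjusted p = 0.0184), the monocarboxylate transporter gene Slc16a5 by -1.71 ± 0.34 (adjusted p = 0.0229) and the tubulin gene Tubb2a by -1.53 ± 0.35 (adjusted p = 0.0461). Padi2 was lost without batch 1 OVA 3 and batch 1 OVA 2, taken singly (up to 0.0733), Slc16a5 without any one of batch 1 pGal 1, batch 1 pGal 2, batch 1 OVA 3, batch 1 OVA 2 and batch 2 OVA 1 (up to 0.0940) and Tubb2a without any one of batch 1 pGal 1, batch 1 pGal 2, batch 2 pGal 2, batch 1 OVA 3, batch 1 OVA 2 and batch 2 OVA 1 (up to 0.159).

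The 2 batches hold different libraries and were also fitted apart. Batch 1 alone gave 370 of 14559 genes (2.54%), 167 higher and 203 lower. Batch 2 alone, with 2 libraries in each group, gave none by edgeR, with 1298 of 13753 genes at an unadjusted p under 0.05. Of the genes called in batch 1, 368 were also measured in batch 2, and 276 of them (75.0%) had the same sign there, against 49.2% of all 13568 genes in both fits. The genes that were higher in batch 1 had a median log2 fold change of 0.45 in batch 2 (125 of 165 positive), and the lower ones a median of -0.22 (151 of 203 negative). Ctla4 was at log2 1.75 in batch 1 and 2.09 in batch 2, Izumo1r at 1.56 and 2.42, and Nrp1 at 1.67 and 1.80. Dntt was at -4.41 in batch 1 and -2.55 in batch 2, Ly6c1 at -4.19 and -2.04, and Il7r at -0.91 and -0.99. In these fits, which hold the B-rich libraries, the changes of Ctla4, Izumo1r and Nrp1 were larger in batch 2. Those of Dntt and Ly6c1 were larger in batch 1. The B-rich batch 2 OVA 2 was the lowest OVA library for Ctla4, Izumo1r, Dntt and Ly6c1 (28.9, 61.8, 11.5 and 59.4 CPM). The B-rich batch 1 pGal 3 was the lowest pGal library for Ctla4, Izumo1r and Nrp1 (114, 267 and 68.9 CPM). How far these libraries set the order of the batches was not tested. These differences between batches were not tested.

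The same antigens were given to the OT-I cells of this experiment. There no gene was called in pGal against OVA by edgeR (5 libraries each), with 420 of 13802 genes at an unadjusted p under 0.05. Of the 264 genes called in OT-II cells 262 were measured in OT-I cells, and 153 of these (58.4%) had the same sign, against 54.7% of all 13563 genes in both fits. Their median log2 fold change in OT-I cells was 0.01 for the higher genes and -0.05 for the lower ones. The difference between the cell types was itself called for 77 of 14845 genes (0.519%), 54 positive and 23 negative, and 70 of them were also called in OT-II cells. For 73 of the 77 the log2 fold change in OT-I cells was under 0.5 in size. The share of all genes under 0.5 was not counted, so this is not shown to be particular to the 77. This count also rested on single libraries. It was 6 without batch 1 OVA 2, 12 without batch 1 pGal 1, 13 without batch 1 pGal 2, 21 without batch 1 OVA 3, 40 without batch 2 pGal 1, 43 without batch 2 pGal 2, 131 without batch 2 OVA 2 and 218 without batch 1 pGal 3. Without both B-rich libraries it was 229.

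Nrp1 had the smallest p of the difference. Its log2 fold change was 1.75 in OT-II cells and -1.53 in OT-I cells, where it averaged 17.2 ± 11.3 CPM after pGal and 45.8 ± 20.3 CPM after OVA (SD, n = 5 each) and was not called. The difference was 3.27 ± 0.49 on the log2 scale (SE, adjusted p = 0.00996). Lag3 averaged 4.80 ± 2.33 CPM with pGal and 6.35 ± 1.42 CPM with OVA in OT-I cells, and the difference of 2.25 ± 0.44 passed (adjusted p = 0.0258). Il7r averaged 278 ± 93.1 CPM after pGal and 252 ± 43.7 CPM after OVA in OT-I cells, with a difference of -1.04 ± 0.24 (adjusted p = 0.0492). Il2rb, which was more abundant in OT-I cells at 984 ± 365 and 1142 ± 252 CPM, gave a difference of 1.26 ± 0.28 (adjusted p = 0.0431). Among the leading genes Ppic, Enpp4, Atp1b1, Epb41 and Dusp6 passed as well, with OT-I fold changes of 0.15, -0.11, -0.08, -0.04 and -0.08. The differences of Nrp1, Ppic, Enpp4, Atp1b1, Epb41 and Dusp6 passed without any one OT-II library. Those of Lag3 (without any one of batch 1 pGal 1, batch 1 pGal 2, batch 1 OVA 3 and batch 1 OVA 2, adjusted p up to 0.0735), Il7r and Il2rb (without any one of these or batch 2 pGal 1, batch 2 pGal 2 and batch 2 OVA 1, up to 0.136 and 0.134) did not. For Ctla4 (0.15 in OT-I cells, difference 1.74 ± 0.47, adjusted p = 0.103) and Izumo1r (0.33, 1.60 ± 0.66, 0.403) the difference missed the threshold. Ccr10 averaged 2.89 ± 2.58 CPM with pGal and 0.516 ± 0.503 CPM with OVA in OT-I cells (log2 2.43, not called), with a difference of 0.59 ± 1.02 (adjusted p = 0.959). Ly6c1 had a log2 fold change of -2.76 in OT-I cells, which was not called and in which 1 library stood apart: batch 1 OVA 1 held 91.5 CPM, while the pGal libraries ranged over 0.754 to 5.38 CPM and the other 4 OVA libraries over 1.51 to 2.47 CPM. Its difference of -0.51 ± 1.27 (adjusted p = 0.975) is uncertain for the same reason.

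**Figure D4:**
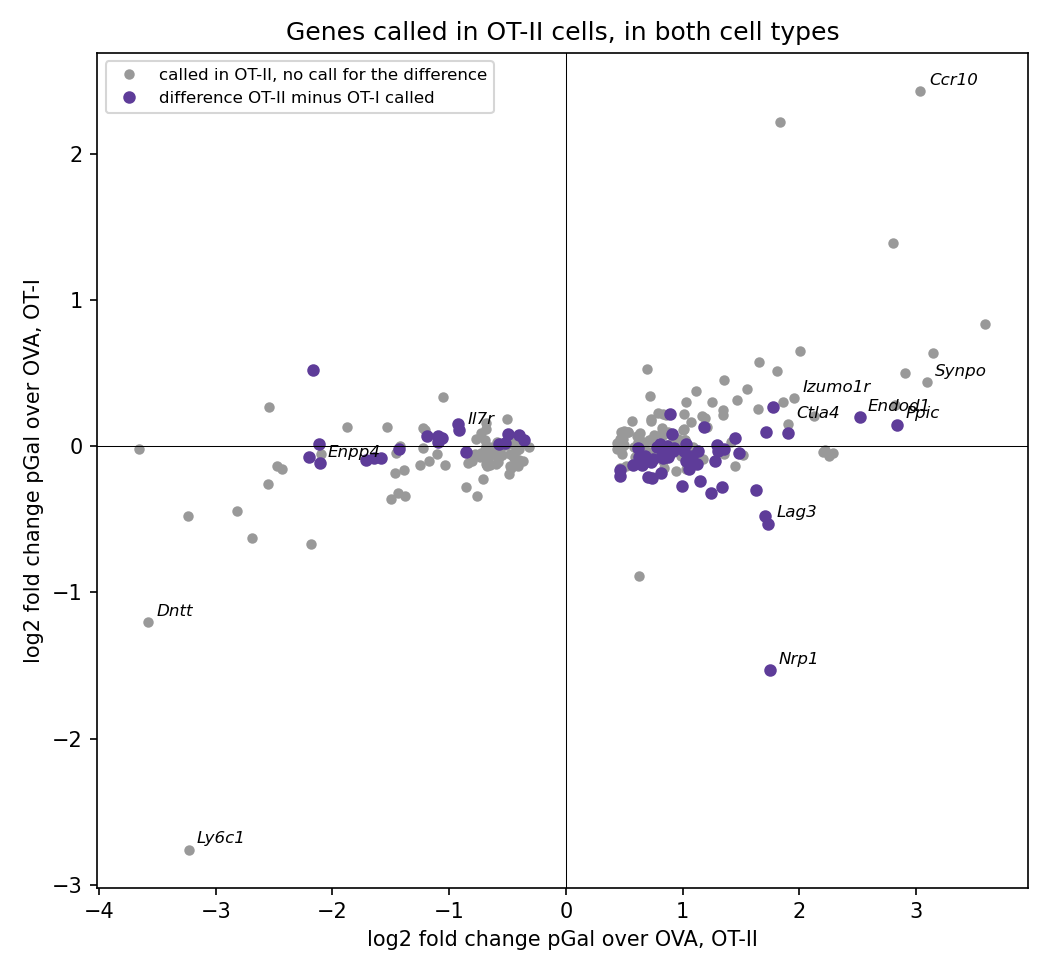
Log2 fold changes of pGal over OVA in OT-II cells (x axis) and OT-I cells (y axis) for the 262 genes called in OT-II cells and measured in both, with purple for genes whose difference between the cell types was called. Most genes lie near 0 on the OT-I axis, with Ccr10 at 2.43 among the exceptions, Ly6c1 at -2.76 through a single OT-I OVA library, and Nrp1 at -1.53 on the opposite side.

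In the OT-II cells of mice immunized before treatment the same genes did not follow. Of 259 measured there, 108 (41.7%) had the same sign in pGal against OVA, against 50.6% of all 13728 genes, over 10 pGal and 8 OVA libraries as labelled. With only the 8 pGal and 6 OVA libraries in which Cd4 exceeded Cd8a, 96 of 259 (37.1%) had the same sign, against 48.7% of all genes.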

How the data were processed

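RNA of sorted OT-II cells was converted with SmartSeq v4 and sequenced paired-end, per the labels' protocols, and read with bcl2fastq and kallisto 0.46.1 on GRCm38, per the submitters' processing notes. The deposited values are estimated counts per gene. No source used here says how transcripts were summed to genes. Estimated counts were rounded to whole numbers, 77 genes missing from some tables were left out, and 27 symbols turned into dates were matched by identifier, which left 21823 genes.

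The pGal, OVA and saline OT-II libraries were fitted with a batch term by edgeR 4.0.16 in R 4.3.3 (filterByExpr, TMM, robust quasi-likelihood test, Benjamini-Hochberg adjustment at 0.05). "Called" and "passed" mean under that threshold. The difference between cell types came from a fit with the OT-I libraries. All recipients had received both OT-I and OT-II cells, so libraries of both types may come from the same mice. That fit held no term for shared mice and took all libraries as independent. The SE and p-values of the difference rest on this. limma 3.58.1 (voom) and DESeq2 1.42.0 were alternatives. Libraries are pools of 3 mice, so p-values measure the spread between pools.

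Genes were named by rule: the 10 highest and 10 lowest folds among called genes with at least 10 CPM in the higher group, up to 4 called genes with the smallest p in each list, a panel of 20 genes, the 5 leading genes of the difference between cell types, and Cd4, Cd8a and Cd79a. A further 10 were picked after their values were seen. The members and lists were chosen with earlier results of these data known. Promoters were matched by symbol for 61 of the 84 genes named. Some genes that the rule names are not reported here.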

Additional observations from a re-analysis of the deposited data

Results flagged for a closer look

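Single libraries lay far from the rest of their group for 19 of the 168 combinations of a gene and a group examined (84 genes, pGal and OVA libraries), by Dixon's test of the gap at the end of the range at its 95% critical value. Chance flags about 1 in 20 groups. The B-rich libraries account for 12 of the 19. In batch 1 pGal 3 the values were 1043 CPM for Cd79a, 86.7 CPM for Cd8a, 6.15 CPM for Havcr2 and 19.4 CPM for Ccr9, all above the other pGal libraries, and 1835 CPM for Tcf7 and 119 CPM for Tox, below them. In batch 2 OVA 2 they were 1426 CPM for Cd79a, 121 CPM for Cd8a, 12.7 CPM for Havcr2, 39.3 CPM for Foxp3 and 512 CPM for Nfatc1, above the other OVA libraries, and 773 CPM for Tcf7, below them. Batch 2 pGal 1 was highest of its group for Cd44 (266 CPM), Il2ra (63.4 CPM) and Mki67 (54.2 CPM). Batch 2 OVA 1 was highest of its group for Pdcd1 (42.4 CPM), P2rx7 (61.4 CPM) and Mpp2 (2.10 CPM), and batch 1 OVA 3 for Ubash3b (44.2 CPM).

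For 21 of the 84 genes the effect of pGal against OVA differed between OT-II and OT-I cells. The test was the interaction term of a joint edgeR fit, at an adjusted p under 0.05. Of all genes tested for it, 77 of 14845 (0.519%) passed. Many of the 84 were named for their call in OT-II cells, and some for a small p of this difference. Their higher share is therefore no separate evidence. The difference, OT-II minus OT-I on the log2 scale, was positive for Nrp1 (3.27 ± 0.49, SE), Ppic (2.68 ± 0.43), Endod1 (2.31 ± 0.52), Lag3 (2.25 ± 0.44), Casp1 (1.61 ± 0.30), Dapl1 (1.38 ± 0.31), Ifi27l2a (1.32 ± 0.31), Il2rb (1.26 ± 0.28), Dusp6 (0.90 ± 0.16), Rgs3 (0.85 ± 0.18) and Nfatc1 (0.70 ± 0.14). It was negative for Myo6 (-2.14 ± 0.45), Enpp4 (-1.998 ± 0.35), Slc16a5 (-1.64 ± 0.37), Atp1b1 (-1.57 ± 0.27), Padi2 (-1.51 ± 0.33), Clcf1 (-1.17 ± 0.23), Il7r (-1.04 ± 0.24), Epb41 (-0.83 ± 0.14), Gbp2 (-0.60 ± 0.14) and Fkbp4 (-0.55 ± 0.13). Of these 21 differences 6 passed without any one OT-II library (Nrp1, Ppic, Enpp4, Atp1b1, Epb41 and Dusp6). The other 15 all missed the threshold without batch 1 OVA 2, and 14 of them without batch 1 pGal 1.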

How the results depend on the processing

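The count of 264 genes in OT-II cells and of 77 genes for the difference from OT-I cells depended on the fit: 914 and 280 with DESeq2, 122 and 21 without the saline libraries, 493 and 229 without the B-rich libraries, 137 and 0 without a batch term, and 550 and 157 with the B cell marker sum as a covariate. Batch 2 alone gave 0 and 0 by edgeR (1298 and 1074 genes at an unadjusted p under 0.05), and the fit without a batch term left 1050 such genes for the difference. For the difference, 48 passed with no filter on low counts and 313 in batch 1 alone. Leaving out one library gave 70 to 453 and 6 to 218. The replicate block gave 49 and 1. The labels do not say that a shared number marks shared mice or days. Same-numbered libraries correlated at 0.004 and -0.037 in batch 1 and -0.126 in batch 2, where both pairs give 1 value because each group has 2 libraries. Batch 1 also has 2 OVA libraries, so each pGal library's correlations with them are equal in size and opposite in sign. These values can therefore neither show nor exclude pairing. Of the genes called in batch 1, 81.7% had the same sign in batch 2 without the B-rich libraries and 60.3% to 100% when one library was left out (8 genes in the last case). Of the 65 called genes named here, 27 passed without any one library. Most calls were lost without batch 1 OVA 2 (37) or batch 1 OVA 3 (29). None of the 65 reversed under any alternative run, and 64 passed without the B-rich libraries, 64 with DESeq2, 37 without saline and 26 with the replicate block.

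Signs turned for genes that did not pass, on the log2 scale. In batch 1 alone Havcr2 was at 1.96, Foxp3 at -0.058, Ifng at 0.42 and Tcf7 at -0.085. In batch 2 alone Cxcr5 was at -0.58, Bcl6 at -0.56, Mki67 at -0.27, Ccr7 at 0.22, Nr4a1 at 0.14, Cd8a at -4.07 and Cd79a at -5.99. Without a batch term Cxcr5 was at -0.18, Bcl6 at -0.027, Mki67 at -0.26, Cd8a at -0.72 and Cd79a at -0.77. With voom Mki67 was at -0.11, Cd8a at -0.085 and Cd79a at -0.86. Without the B-rich libraries these 3 genes were at -0.017, -0.45 and -0.85, and with the replicate block at -0.063, -0.88 and -0.91. Cd79a was at -0.75 without saline and -0.082 with the covariate. With one library left out the ranges were -0.069 to 0.30 for Foxp3, -0.053 to 0.72 for Cxcr5, -0.64 to 0.11 for Ifng, -0.16 to 0.27 for Mki67, -0.32 to 0.15 for Nr4a1, -3.13 to 3.38 for Cd8a and -3.50 to 3.29 for Cd79a. The cause of these changes was not tested.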

Other observations

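Further called genes, picked after their values were seen, belong to none of the lists above. They stand for no list, and no tally of related genes was made. Casp1, the caspase of the inflammasome, was at 66.0, 61.9, 56.1, 65.2 and 75.2 CPM in pGal libraries, against 17.6, 21.4, 26.6 and 43.1 CPM in OVA libraries (log2 1.34 ± 0.19, adjusted p = 0.00637 by edgeR), and Casp4, the caspase that senses intracellular lipopolysaccharide, was at 36.0, 34.3, 24.1, 37.0 and 47.1 CPM in pGal libraries, against 4.54, 6.85, 11.4 and 13.2 CPM in OVA libraries (log2 2.20 ± 0.42, adjusted p = 0.0172). Neither gene's groups overlapped. Pycard, the adaptor ASC, averaged 242 ± 56.8 CPM in pGal libraries and 118 ± 30.7 CPM in OVA libraries (adjusted p = 0.0238), and P2rx7, the ATP-gated channel, 80.7 ± 20.8 CPM in pGal libraries and 42.0 ± 13.1 CPM in OVA libraries (adjusted p = 0.0254). Casp1 passed without any one library, with a difference from OT-I cells of 1.61 ± 0.30 (adjusted p = 0.0199, and 0.0643 without batch 1 OVA 2). Casp4 was lost without batch 1 OVA 3 and batch 1 OVA 2, taken singly (up to 0.0849), Pycard without any one of batch 1 pGal 1, batch 1 pGal 2, batch 2 pGal 1, batch 2 pGal 2, batch 1 OVA 3 and batch 1 OVA 2 (up to 0.0849) and P2rx7 without any one of batch 1 pGal 1, batch 1 pGal 2, batch 2 pGal 1, batch 1 OVA 3 and batch 1 OVA 2 (up to 0.103).

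Bmp7, a bone morphogenetic protein, was at 57.4, 62.1, 26.2, 74.2 and 84.6 CPM in pGal libraries, against 13.7, 14.2, 22.2 and 10.6 CPM in OVA libraries (log2 2.01 ± 0.37, adjusted p = 0.0148, and up to 0.0733 without batch 1 OVA 3 and batch 1 OVA 2, taken singly). Clcf1, a cytokine of the IL-6 family, was at 10.3, 10.3, 14.8, 7.06 and 10.9 CPM in pGal libraries, against 26.6, 23.2, 18.7 and 19.6 CPM in OVA libraries (log2 -1.09 ± 0.17, adjusted p = 0.00794). Wnt5b was lower at 0.683 ± 0.250 CPM in pGal libraries and 4.82 ± 2.61 CPM in OVA libraries (adjusted p = 0.00794). Clcf1 and Wnt5b passed without any one library. The HSP90 co-chaperones Stip1 (log2 -0.59 ± 0.11, adjusted p = 0.0143) and Fkbp4 (log2 -0.52 ± 0.11, adjusted p = 0.0360) were lower. Stip1 was lost without batch 1 OVA 3 (0.0653) and Fkbp4 without any one of batch 1 pGal 1, batch 1 pGal 2, batch 2 pGal 1, batch 1 OVA 3, batch 1 OVA 2 and batch 2 OVA 2 (up to 0.150).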
